A study of Homo sapiens with 12 samples.

Results

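CXCR7 knockdown (KD) lowered GATA2 mRNA to 52.0% of control in LNCaP-EnzR cells and 53.7% in C4-2B-EnzR cells, both prostate cancer lines. FOXA1 was lowered less, in calls that some alternative settings lost, while SPDEF and CREB3L4 passed the test in neither line. These are 4 of 6 transcription factors of luminal prostate epithelium followed here across the RNA-Seq libraries of the study: FOXA1, HOXB13, GATA2, SPDEF, NR3C1 and CREB3L4. They were chosen by gene symbol as factors of androgen-dependent luminal cells, and all 6 were found among the 26439 genes of the table. This choice, and that of the gene lists below, was made with earlier results of these data known. Each line had 2 groups of 3 libraries. LNCaP-EnzR cells (labelled LNCaP MDVr, kept in 2 µM enzalutamide) and C4-2B-EnzR cells (labelled C4-2B MDVr, kept in 10 µM enzalutamide) were infected with lentivirus carrying a short hairpin against CXCR7 (shCXCR7) or the pLKO control (LKO), and total RNA was taken on day 4 after infection. LNCaP is an established human prostate cancer line, C4-2B is a castration-resistant line derived from it, and enzalutamide is an antiandrogen drug. All groups, controls included, were resistant cells under the drug, and no drug-free or parental cells are part of the comparison. Which hairpin was used for RNA-Seq is not given in the sources used here, and nothing says that replicates were separate cultures, so p-values measure how these libraries vary, which may be technical variation alone.

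Luminal cells of the prostate are defined by a small set of DNA-binding proteins that act in the response to androgen. FOXA1 and GATA2 are pioneer factors, which bind DNA in closed chromatin and open it for other factors. HOXB13 is a homeodomain protein of the posterior body axis that is kept in adult prostate, SPDEF is an ETS family factor of secretory epithelia, and CREB3L4 (AIbZIP) is a bZIP factor held in the endoplasmic reticulum membrane and induced by androgen. NR3C1, the glucocorticoid receptor, binds DNA when activated by cortisol and related steroids, and can become more abundant in enzalutamide-resistant cells.

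The unit is RPKM, reads per kilobase of gene scaled to library size, rescaled here by median-of-ratios factors within each line so that the median gene is level between libraries. Between 6380784 and 9832440 reads per library lay in genes. LNCaP-EnzR shCXCR7 replicate 3 stood apart. Only 27.4% of its reads lay in genes, against 67.0% to 75.5% in the other 11 libraries, 1636 genes had no read in it, against 8719 to 9652 elsewhere, and its scale factor was 0.493 against 0.946 to 1.207. All 9 luminal markers averaged 1 RPKM or more in each group. In LNCaP-EnzR shCXCR7 libraries KLK2 and ACPP averaged only 1.56 and 1.86 RPKM. With shCXCR7, 3 of the 9 were higher and 5 lower in LNCaP-EnzR cells (adjusted p under 0.05 from limma), beside 19.4% and 21.3% of all genes. In C4-2B-EnzR cells 4 were higher and 5 lower, beside 21.2% and 21.3%. The summed level of the 9 was 312 to 367 RPKM in LNCaP-EnzR shCXCR7 and 323 to 332 RPKM in LNCaP-EnzR LKO libraries. In C4-2B-EnzR libraries it was 459 to 481 RPKM with shCXCR7 and 497 to 539 RPKM with LKO. Basal, neuroendocrine, fibroblast, blood and endothelial markers summed to between 0.0474 and 21.6 RPKM per list. In LNCaP-EnzR cells basal markers summed to 0.979 to 9.73 RPKM with shCXCR7, against 1.01 to 1.23 RPKM with LKO, fibroblast markers to 3.94 to 8.07 RPKM against 3.51 to 3.91, blood markers to 3.08 to 7.84 RPKM against 4.13 to 4.25, and endothelial markers to 0.0768 to 3.52 RPKM against 0.0642 to 0.119. These shCXCR7 ranges include replicate 3, the library that stood apart, and which library gave each upper end is not reported here. ITGB4, a basal marker, averaged 1.02 RPKM with shCXCR7 and 0.832 RPKM with LKO in LNCaP-EnzR cells. Without replicate 3 ITGB4 was lower with shCXCR7 (log2 fold change -0.62, adjusted p = 0.0407 from limma). Neuroendocrine markers summed to less with shCXCR7, at 6.71 to 11.8 RPKM against 12.2 to 14.4 RPKM in LNCaP-EnzR LKO libraries. In C4-2B-EnzR cells they summed to 14.98 to 16.6 RPKM with shCXCR7, against 19.7 to 21.6 RPKM with LKO. Most of the LKO sums was ENO2, which averaged 12.4 RPKM in LNCaP-EnzR LKO and 20.2 RPKM in C4-2B-EnzR LKO libraries. Of 7 neuroendocrine markers listed, 2 were tested in each line, and they went opposite ways. With shCXCR7, ENO2 was lower and SYP higher in both lines (adjusted p under 0.05 from limma), so the sum does not describe the list as a whole. The part of these markers in the results was not tested. In RNA from many cells, fewer cells of a type and less RNA per cell cannot be told apart.

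The targeted gene was lower in every shCXCR7 library. ACKR3, the current symbol of CXCR7, stood at 55.7, 50.5 and 42.1 RPKM in LNCaP-EnzR shCXCR7 libraries, against 122, 117 and 111 RPKM in LKO. C4-2B-EnzR libraries had 22.3, 23.7 and 19.0 RPKM with shCXCR7, against 84.0, 86.5 and 85.6 RPKM with LKO. The log2 fold change was -1.24 (standard error 0.11, adjusted p = 2.02e-05 from limma) in LNCaP-EnzR cells and -1.97 (standard error 0.09, adjusted p = 1.21e-05) in C4-2B-EnzR. The fold changes differed between the lines by -0.71 on the log2 scale, C4-2B-EnzR minus LNCaP-EnzR (limma interaction, adjusted p = 0.0109), so KD was deeper in C4-2B-EnzR cells. All fold changes are on the log2(rescaled RPKM + 0.25) scale, which understates the change of low genes, with p-values adjusted over all genes tested. Rose and fell are written of genes with an adjusted p under 0.05 from limma.

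In control cells FOXA1, GATA2 and HOXB13 were among the more abundant mRNAs. FOXA1 averaged 139 ± 5.85 RPKM (SD, n = 3) in LNCaP-EnzR LKO libraries, above 99.3% of all genes, followed by GATA2 at 133 ± 7.23 and HOXB13 at 74.9 ± 3.23 RPKM. The ranges of FOXA1 and GATA2 overlapped there, and that of HOXB13 lay below both. In C4-2B-EnzR LKO libraries HOXB13 came first at 135 ± 13.4 RPKM, overlapping with FOXA1 at 125 ± 5.38, and GATA2 stood below both at 89.0 ± 6.87 RPKM. CREB3L4 and SPDEF overlapped with each other in the controls of both lines, at 28.3 ± 1.47 and 24.8 ± 2.25 RPKM in LNCaP-EnzR and 29.0 ± 1.69 and 28.4 ± 1.56 RPKM in C4-2B-EnzR cells. NR3C1 was last in every group. With shCXCR7 the order changed at its top: in LNCaP-EnzR cells GATA2 came down into the range of HOXB13, and in C4-2B-EnzR cells FOXA1 came first, above HOXB13, without overlap.

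**Figure D1:**
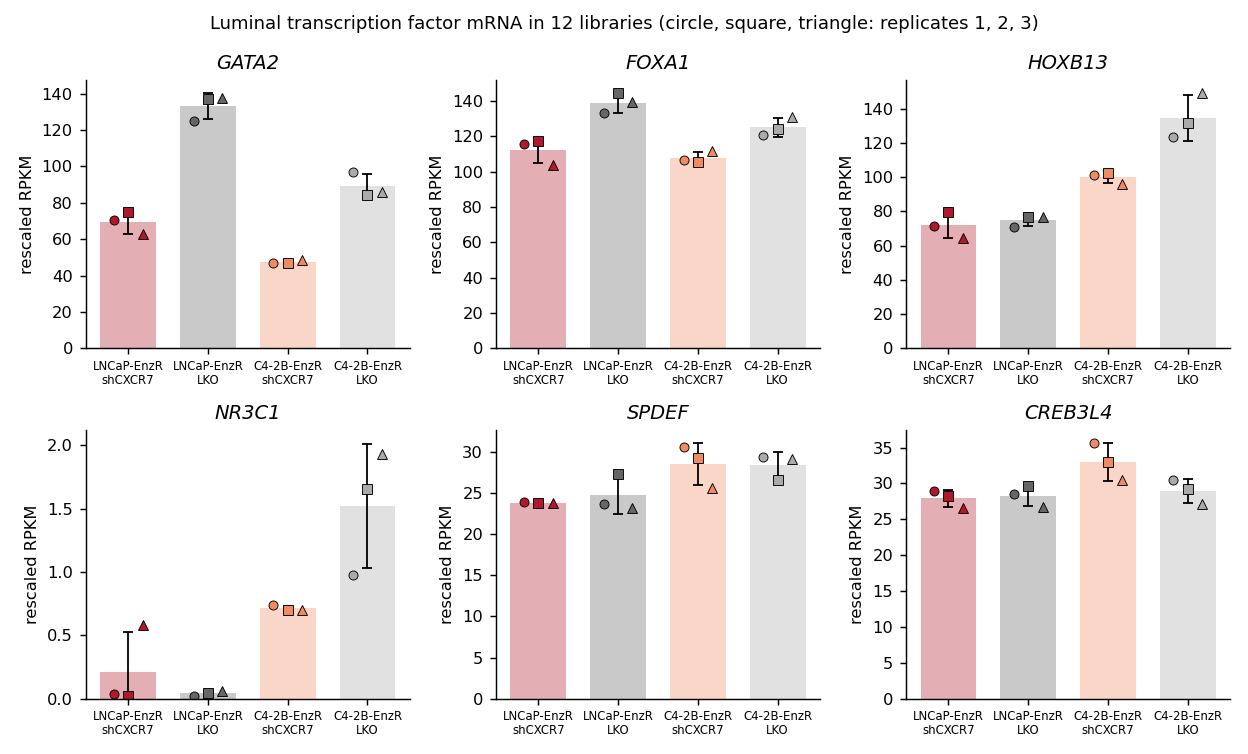
Rescaled RPKM (linear axis from 0) of each of the 6 factors in the 12 libraries, shCXCR7 left of LKO within each line; bars are means, error bars the SD of 3 libraries, and points single libraries. GATA2 lies between 62.6 and 75.1 RPKM in LNCaP-EnzR shCXCR7 and between 47.0 and 48.6 RPKM in C4-2B-EnzR shCXCR7 libraries, below every LKO library of its line, while SPDEF overlaps between groups in both lines.

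GATA2, a zinc finger factor that binds GATA motifs, fell in both lines. Its gene lies on chromosome 3 of GRCh38 (chr3:128479422-128493201, - strand), with 6 exons in the canonical GENCODE transcript. GATA2 stood at 70.4, 75.1 and 62.6 RPKM in LNCaP-EnzR shCXCR7 libraries, against 125, 137 and 138 RPKM in LKO. C4-2B-EnzR libraries had 47.0, 47.1 and 48.6 RPKM with shCXCR7, against 96.9, 84.1 and 86.1 RPKM with LKO. The groups did not overlap in either line, and the value of replicate 3 was the lowest of the LNCaP-EnzR shCXCR7 libraries. The log2 fold change was -0.94 (standard error 0.09, 95% interval -1.15 to -0.73, adjusted p = 4.77e-05 from limma) in LNCaP-EnzR cells and -0.90 (standard error 0.07, interval -1.07 to -0.73, adjusted p = 8.92e-05) in C4-2B-EnzR. The difference between the lines was 0.07 (interval -0.19 to 0.33, adjusted p = 0.760 by interaction), so a difference of more than 0.33 lies outside its interval. The fall passed the test in all 19 alternatives run in C4-2B-EnzR and in 19 of 20 in LNCaP-EnzR cells, the exception being RPKM as deposited, where replicate 3 was left unscaled (-1.29, adjusted p = 0.258).

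FOXA1, the forkhead pioneer factor, fell by a smaller amount in both lines. The gene has 2 exons on chromosome 14 (chr14:37589552-37595249, - strand). Its level was 115, 117 and 104 RPKM in LNCaP-EnzR shCXCR7 libraries, against 133, 145 and 139 RPKM in LKO. C4-2B-EnzR libraries had 106, 106 and 112 RPKM with shCXCR7, against 120.5, 124 and 131 RPKM with LKO. The groups did not overlap, although the highest C4-2B-EnzR shCXCR7 library, at 112 RPKM, came near the lowest LKO library, at 120.5 RPKM. The log2 fold change was -0.31 (standard error 0.09, adjusted p = 0.0192 from limma) in LNCaP-EnzR cells and -0.21 (standard error 0.06, adjusted p = 0.0294) in C4-2B-EnzR, with no difference shown between the lines (0.12, interval -0.11 to 0.35, adjusted p = 0.510 by interaction). These calls were not stable. In LNCaP-EnzR cells the call was lost with RPKM as deposited (-0.65, adjusted p = 0.708), with no filter (-0.31, adjusted p = 0.0688) and without LKO replicate 2 (-0.28, adjusted p = 0.0937) or 3 (-0.31, adjusted p = 0.0727). In C4-2B-EnzR cells it was lost without LKO replicate 2 (-0.22) or 3 (-0.18) and without shCXCR7 replicate 1 (-0.20) or 2 (-0.19), with adjusted p between 0.0614 and 0.131. It was also lost with RPKM as deposited (-0.18, adjusted p = 0.120), in a fit of all 12 libraries (-0.20, adjusted p = 0.0507), and, at the same fold change, without a variance trend (adjusted p = 0.0579) or with a replicate block (adjusted p = 0.0922).

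The promoters of these factors are shown because they are the members that fell in both lines. The windows below are the 250 bases before the RefSeq transcription starts (GRCh38.p14), in which capitals mark GC boxes (GGGCGG, on either strand). The RefSeq table gives 2 starts of GATA2, an upstream one (window chr3:128493202-128493451, - strand) and a downstream one (chr3:128488531-128488780, - strand), and 1 of FOXA1 (chr14:37595250-37595499, - strand).
GATA2 upstream start: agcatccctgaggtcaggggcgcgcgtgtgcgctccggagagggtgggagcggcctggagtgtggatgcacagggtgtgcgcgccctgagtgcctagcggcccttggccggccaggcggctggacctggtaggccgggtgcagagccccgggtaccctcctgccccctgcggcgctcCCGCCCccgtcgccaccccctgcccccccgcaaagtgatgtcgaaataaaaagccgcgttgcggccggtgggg
GATA2 downstream start: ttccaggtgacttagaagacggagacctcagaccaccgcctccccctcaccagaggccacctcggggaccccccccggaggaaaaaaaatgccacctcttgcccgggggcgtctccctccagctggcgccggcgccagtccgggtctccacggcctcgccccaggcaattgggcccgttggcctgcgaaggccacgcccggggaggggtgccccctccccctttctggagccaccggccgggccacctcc
FOXA1: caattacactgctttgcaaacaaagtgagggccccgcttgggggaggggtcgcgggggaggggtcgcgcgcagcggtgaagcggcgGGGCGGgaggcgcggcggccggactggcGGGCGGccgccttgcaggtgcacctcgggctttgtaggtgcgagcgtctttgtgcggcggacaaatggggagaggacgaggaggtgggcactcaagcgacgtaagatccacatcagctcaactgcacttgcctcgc
All windows were rich in G and C, at 72.8%, 71.2% and 67.2%, against a median of 58% over 35116 promoter windows of the same length. The GC box began at position -73 of the upstream GATA2 window and at -164 and -136 of the FOXA1 window, counted from -1 at the base before the start, these matches did not overlap, and 42.6% of all windows held one.

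Searched on both strands, none of these 3 windows held a GATA motif (AGATAA, in 9.17% of all windows), a forkhead motif (TGTTTAC, 2.98%), the steroid response element core (AGAACA, 12.4%) or a cyclic AMP response element (TGACGTCA, 1.65%). Nor did they hold an ETS motif (CCGGAAG, 8.52%), a HOX13 motif (CCAATAAA, 0.863%), an AP-1 motif (TGANTCA, 6.57%) or an E-box (CACGTG, 6.34%). The table held 12 windows for 5 of the 6 members, and HOXB13 had no entry. The windows of SPDEF and CREB3L4 held none of these motifs either, apart from a GC box at -55 of CREB3L4. Among the 7 windows of NR3C1, 1 held a forkhead match (at -59), 1 an ETS match (at -56) and 1 an AP-1 match (at -228). A match describes the letters of the window and is no evidence of binding.

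GATA2 and FOXA1 each share a few exon bases with a gene on the opposite strand, and the strand setting of the counting is not given. These neighbours were looked at after the members' values were known. GATA2-AS1, an antisense RNA that starts near the GATA2 promoter, shares 78 exon bases with GATA2. Its level was 20.7, 19.3 and 18.9 RPKM in LNCaP-EnzR shCXCR7 libraries, against 14.5, 15.8 and 12.97 RPKM in LKO, and 21.8, 20.4 and 19.7 RPKM in C4-2B-EnzR shCXCR7 libraries, against 24.8, 21.8 and 21.8 RPKM in LKO. It rose in LNCaP-EnzR cells, where GATA2 fell (0.44, adjusted p = 0.00241 from limma), and did not pass in C4-2B-EnzR cells (-0.14, interval -0.32 to 0.05, adjusted p = 0.198). TTC6, a tetratricopeptide repeat gene that runs away from FOXA1 on the other strand and shares 16 exon bases with it, also fell in both lines. TTC6 stood at 4.77, 4.00 and 3.95 RPKM in LNCaP-EnzR shCXCR7 libraries, against 19.6, 18.5 and 18.1 RPKM in LKO, and at 3.38, 3.81 and 3.95 RPKM in C4-2B-EnzR shCXCR7 libraries, against 13.1, 11.7 and 10.1 RPKM in LKO. Its log2 fold change was -2.08 (adjusted p = 5.89e-07 from limma) in LNCaP-EnzR cells and -1.58 (adjusted p = 5.4e-05) in C4-2B-EnzR.

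HOXB13 was lower after KD in C4-2B-EnzR cells. Its gene on chromosome 17 (chr17:48724763-48728750, - strand) has 2 exons. HOXB13 stood at 101, 103 and 95.9 RPKM in C4-2B-EnzR shCXCR7 libraries, against 123, 132 and 149.6 RPKM in LKO, with no overlap. In LNCaP-EnzR cells it stood at 71.6, 79.8 and 64.7 RPKM with shCXCR7, against 71.2, 76.5 and 76.9 RPKM with LKO, and the shCXCR7 libraries lay on either side of the controls. The log2 fold change was -0.43 (standard error 0.08, adjusted p = 0.00500 from limma) in C4-2B-EnzR and -0.06 (interval -0.27 to 0.15, adjusted p = 0.648) in LNCaP-EnzR cells. The C4-2B-EnzR call held in all 19 alternatives run. The call on a difference between the lines changed with the scaling and with the library that stood apart. The difference was -0.34 (interval -0.63 to -0.06) and missed the threshold with all 12 libraries (adjusted p = 0.116 by interaction), and it was -0.43 and passed without LNCaP-EnzR shCXCR7 replicate 3 (adjusted p = 0.0315). It also passed after quantile normalization (-0.56), with factors from genes at 5 RPKM or more (-0.46) and with 0.25 RPKM of background subtracted from that library (-0.40), with adjusted p between 0.00127 and 0.0261. Over all 26 alternatives the adjusted p ran up to 0.992.

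NR3C1 was nearly silent in LNCaP-EnzR and low in C4-2B-EnzR cells. The gene spans chr5:143277931-143435512 on the - strand, with 9 exons. In LNCaP-EnzR cells it gave 5, 3 and 96 reads in shCXCR7 replicates 1, 2 and 3, against 2, 7 and 7 reads in LKO. The 96 reads came from the library with most of its reads outside genes, and fewer than 3 libraries reached the filter of 0.5 RPKM, so that NR3C1 was not tested in that line. In C4-2B-EnzR cells 86, 76 and 79 reads with shCXCR7, against 112, 152 and 231 with LKO, gave 0.737, 0.703 and 0.699 RPKM with shCXCR7, against 0.977, 1.66 and 1.93 RPKM with LKO. The shCXCR7 libraries lay close together below the controls, which spread by 0.492 RPKM (SD). The log2 fold change was -0.84 (standard error 0.23, interval -1.37 to -0.31, adjusted p = 0.0195 from limma). The call was lost without LKO replicate 2 (-0.77, adjusted p = 0.0693) or 3 (-0.67, adjusted p = 0.0553), and without shCXCR7 replicate 1 (-0.85), 2 (-0.83) or 3 (-0.82), with adjusted p between 0.0512 and 0.0528. It was also lost in a fit of all 12 libraries (-0.81, adjusted p = 0.149). The size moved with the pseudocount, to -0.99 at 0.05 and -0.54 at 1.

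SPDEF did not pass the test in either line. The gene (chr6:34537802-34556329, - strand) has 6 exons. Its level was 23.9, 23.8 and 23.8 RPKM in LNCaP-EnzR shCXCR7 libraries, against 23.7, 27.4 and 23.2 RPKM in LKO. C4-2B-EnzR libraries had 30.6, 29.3 and 25.7 RPKM with shCXCR7, against 29.4, 26.6 and 29.2 RPKM with LKO, and the groups overlapped in both lines. The log2 difference was -0.05 (interval -0.23 to 0.12, adjusted p = 0.635 from limma) in LNCaP-EnzR cells and 0.0039 (interval -0.20 to 0.20, adjusted p = 0.977) in C4-2B-EnzR, so that a change of more than 0.23 either way lies outside both intervals.

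CREB3L4, the androgen-induced bZIP factor, did not pass either. The gene is on the + strand of chromosome 1 (chr1:153967487-153974359), with 10 exons, and shares 93 exon bases with JTB and 280 with SLC39A1 on the other strand. It stood at 28.9, 28.3 and 26.5 RPKM in LNCaP-EnzR shCXCR7 libraries, against 28.5, 29.6 and 26.7 RPKM in LKO (log2 difference -0.02, interval -0.18 to 0.14, adjusted p = 0.858 from limma). C4-2B-EnzR libraries had 35.7, 33.0 and 30.4 RPKM with shCXCR7, against 30.5, 29.2 and 27.2 RPKM with LKO. The lowest shCXCR7 library lay within the range of the controls (log2 difference 0.19, interval -0.0041 to 0.38, adjusted p = 0.104). The neighbours, looked at after the values were seen, fell in LNCaP-EnzR cells. JTB averaged 73.9 RPKM with shCXCR7 and 93.3 RPKM with LKO (-0.34, adjusted p = 0.0173 from limma), and SLC39A1, a zinc transporter, averaged 19.4 RPKM with shCXCR7 and 24.1 RPKM with LKO (-0.31, adjusted p = 0.00775). Neither passed in C4-2B-EnzR cells (JTB -0.09, adjusted p = 0.401, and SLC39A1 -0.02, adjusted p = 0.867, from limma), and how far reads of the neighbours entered CREB3L4 was not tested.

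In count, 2 of 5 members tested in LNCaP-EnzR cells were lower after KD and none higher, where 40.7% of 13071 genes passed the test, 19.4% as higher and 21.3% as lower. In C4-2B-EnzR cells 4 of 6 were lower and none higher, where 42.5% of 13346 genes passed, 21.2% as higher and 21.3% as lower. Groups did not overlap for the same 2 and 4 members, as for 52.3% of all genes in LNCaP-EnzR cells and 54.7% of all genes in C4-2B-EnzR cells. The difference between the lines passed for 0 of 6 members by limma, where 11.8% of 14212 genes passed, 6.15% as higher and 5.6% as lower. HOXB13 was the 1 member to pass before adjustment (limma p under 0.05). The share of members called in LNCaP-EnzR cells lay near that of all genes, so the count by itself is no result about them. In C4-2B-EnzR cells the FOXA1 and NR3C1 calls were lost in several alternatives. A fit of all 12 libraries called 2 members there, so that count by itself is no result either.

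**Figure D2:**
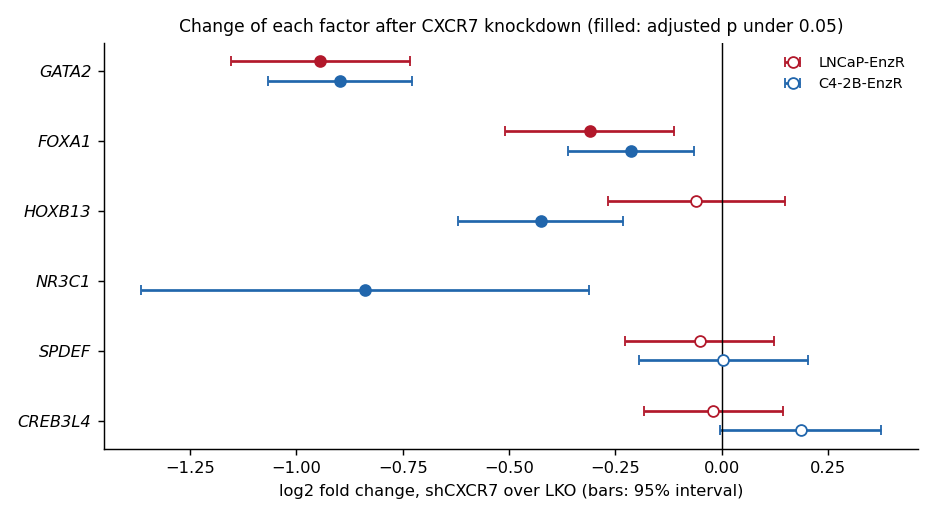
Log2 fold change of each factor, shCXCR7 over LKO, from limma in LNCaP-EnzR (red) and C4-2B-EnzR cells (blue), with 95% intervals; filled points have an adjusted p under 0.05. GATA2 lies at -0.94 and -0.90, FOXA1 at -0.31 and -0.21, HOXB13 at -0.06 and -0.43, and NR3C1 was tested in C4-2B-EnzR cells alone (-0.84).

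Ratios of members within a library need no scale factor and so do not depend on how replicate 3 was rescaled. The GATA2 to FOXA1 ratio was 0.610, 0.642 and 0.603 in LNCaP-EnzR shCXCR7 libraries, against 0.941, 0.949 and 0.991 in LKO. C4-2B-EnzR libraries had 0.443, 0.446 and 0.436 with shCXCR7, against 0.804, 0.678 and 0.657 with LKO. GATA2 was lower relative to FOXA1 in every shCXCR7 library than in every LKO library of its line, with a mean ratio of 64.4% of LKO in LNCaP-EnzR cells and 61.9% of LKO in C4-2B-EnzR cells (exact 2-sided permutation p = 0.1 for both, as small as groups of 3 permit).

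SPDEF passed the test in neither line, and the ratio of GATA2 to it averaged 2.91 ± 0.263 with shCXCR7 and 5.41 ± 0.471 with LKO in LNCaP-EnzR cells, and 1.68 ± 0.190 with shCXCR7 and 3.13 ± 0.173 with LKO in C4-2B-EnzR cells (SD, n = 3 each, exact permutation p = 0.1 in each line). The HOXB13 to FOXA1 ratio went opposite ways in the lines, a difference that was not itself tested. It was higher with shCXCR7 in LNCaP-EnzR cells (0.642 ± 0.0344, against 0.539 ± 0.0124 with LKO) and lower in C4-2B-EnzR cells (0.929 ± 0.0611, against 1.08 ± 0.0601 with LKO), without overlap in either line (SD, n = 3 each, exact permutation p = 0.1 in each). The 6 ratios computed in 2 lines gave 11 of 12 raw p-values at 0.1 and 1, FOXA1 to SPDEF in C4-2B-EnzR cells, at 0.2, so none can pass an adjusted threshold of 0.05.

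**Figure D3:**
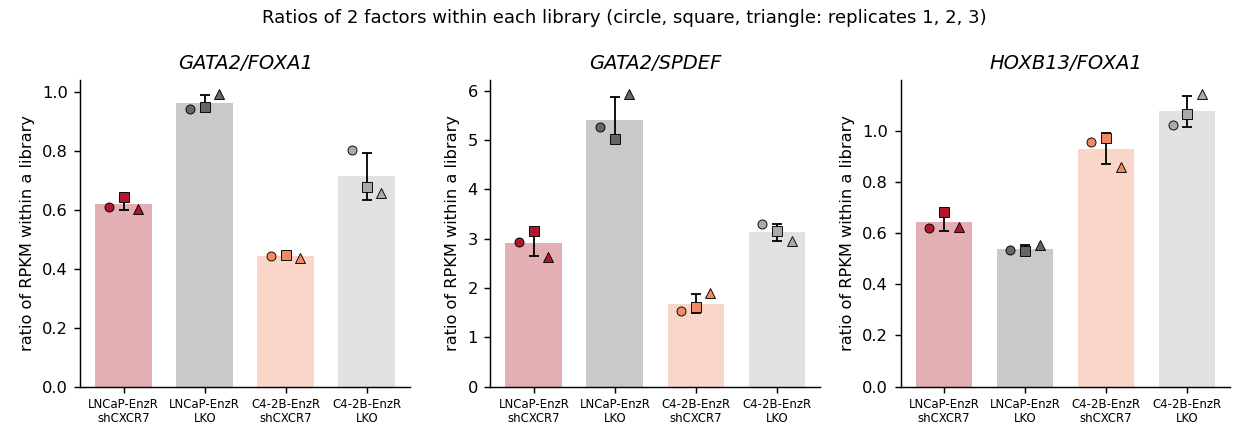
Ratio of the RPKM of 2 factors within each library (axis from 0), shCXCR7 left of LKO within each line; bars are means, error bars the SD of 3 libraries, and points single libraries. GATA2 to FOXA1 and GATA2 to SPDEF lie lower in all shCXCR7 libraries than in the LKO libraries of the same line, while HOXB13 to FOXA1 is higher with shCXCR7 in LNCaP-EnzR (0.642, against 0.539) and lower in C4-2B-EnzR cells (0.929, against 1.08).

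The control lines themselves differed in these factors. On values rescaled over the 12 libraries, GATA2 stood at 87.5, 76.1 and 77.4 RPKM in C4-2B-EnzR LKO libraries, against 138, 151 and 152 RPKM in LNCaP-EnzR LKO (log2 difference -0.87, adjusted p = 2.34e-06 from limma). FOXA1 was also lower, at 113 ± 4.49 RPKM in C4-2B-EnzR and 153 ± 6.48 RPKM in LNCaP-EnzR controls (SD, n = 3 each, log2 difference -0.44, adjusted p = 0.000228 from limma). HOXB13 was higher, at 111, 119 and 134 RPKM in C4-2B-EnzR controls, against 78.4, 84.3 and 85.0 RPKM in LNCaP-EnzR controls (0.55, adjusted p = 0.000211). NR3C1 stood at 1.37 ± 0.441 RPKM in C4-2B-EnzR and 0.0464 ± 0.0226 RPKM in LNCaP-EnzR controls (SD, n = 3 each). It passed the filter through the C4-2B-EnzR libraries, where it is high, so its log2 difference of 2.42 (adjusted p = 0.000278 from limma) had to be large and is no support. Its size depended on the pseudocount and method, at 1.16 with a pseudocount of 1, 3.86 with 0.05 and 4.77 by voom on the whole reads.

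CREB3L4 was lower at 26.1 ± 1.60 RPKM in C4-2B-EnzR and 31.2 ± 1.57 RPKM in LNCaP-EnzR controls (SD, n = 3 each, -0.25, adjusted p = 0.0130 from limma). This call was lost without LNCaP-EnzR LKO replicate 2 (-0.22, adjusted p = 0.0568) or C4-2B-EnzR LKO replicate 3 (-0.20, adjusted p = 0.0584), and with factors from genes at 5 RPKM or more (-0.11). SPDEF did not pass (-0.09, interval -0.27 to 0.09, adjusted p = 0.368). Leaving NR3C1 aside, 4 of 5 members differed, 1 higher and 3 lower, where 60.8% of genes did, 30.8% higher and 30.1% lower. Groups did not overlap for those 4, as for 68.4% of genes. The lines differ in origin, drug dose and culture, which cannot be told apart here.

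The lists that follow are read against all genes, of which 19.4% rose and 21.3% fell (40.7% in all) in LNCaP-EnzR cells and 21.2% rose and 21.3% fell (42.5% in all) in C4-2B-EnzR cells. From each list up to 4 genes per line are named, those with the largest change among genes called without overlap. A gene named for 1 line may also have changed in the other. Family members of the 6 factors moved in both directions. Of 22 listed, 10 were tested in LNCaP-EnzR cells, of which 4 rose and 2 fell (median log2 0.25, against 0.01 over all genes), and 12 in C4-2B-EnzR cells, of which 2 rose and 1 fell (median 0.13, against -0.0011), a smaller share than the 42.5% of all genes. CREB3L2, a relative of CREB3L4 that also resides in the endoplasmic reticulum membrane, averaged 5.35 RPKM with shCXCR7 and 1.04 RPKM with LKO in LNCaP-EnzR cells (2.12, standard error 0.14) and 14.0 RPKM with shCXCR7 and 3.65 RPKM with LKO in C4-2B-EnzR cells (1.87, standard error 0.08). EHF, an ETS factor of epithelia like SPDEF, averaged 32.7 RPKM with shCXCR7 and 55.9 RPKM with LKO in LNCaP-EnzR cells (-0.78) and 69.1 RPKM with shCXCR7 and 126 RPKM with LKO in C4-2B-EnzR cells (-0.86). GATA6 rose where GATA2 fell, to 3.82 RPKM with shCXCR7, against 2.21 RPKM with LKO, in LNCaP-EnzR cells (0.72) and to 6.54 RPKM with shCXCR7, against 3.98 RPKM with LKO, in C4-2B-EnzR cells (0.68). NR3C2, the mineralocorticoid receptor, rose in LNCaP-EnzR cells (0.48). The adjusted p from limma of these calls lay between 5.24e-06 and 0.00994.

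Of 20 other luminal epithelial transcription factors, 15 were tested in LNCaP-EnzR cells, of which 5 rose and 3 fell, and 18 in C4-2B-EnzR cells, of which 6 rose and 3 fell (medians 0.04 and 0.14), beside 40.7% and 42.5% of all genes called. TFAP2A, the AP-2 alpha factor, rose in both lines, by 1.10 (standard error 0.14) in LNCaP-EnzR cells and 0.79 (standard error 0.10) in C4-2B-EnzR. SOX9, a factor of stem-like and ductal epithelium, averaged 3.01 RPKM with shCXCR7 and 0.899 RPKM with LKO in C4-2B-EnzR cells (1.503 on the log2 scale, standard error 0.14). MEIS1, a homeodomain cofactor of HOX proteins, and ONECUT2, a factor of hepatic and neural lineages, also rose there, by 0.99 and 0.59. In LNCaP-EnzR cells NFIX, KLF4 and OVOL1 rose by 0.89, 0.98 and 0.80, and these remained called without shCXCR7 replicate 3 (0.91, 0.72 and 0.63).

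Among genes listed as androgen-induced, more fell than rose. In LNCaP-EnzR cells 12 of 23 tested fell and 2 rose (median log2 -0.22, against 0.01 over all genes), and in C4-2B-EnzR cells 13 of 24 fell and 7 rose (median -0.36). Of all genes 21.3% fell in each line. KLK3, which encodes prostate-specific antigen, averaged 7.22 RPKM with shCXCR7 and 25.4 RPKM with LKO in LNCaP-EnzR cells (-1.79, standard error 0.10), and 29.9 RPKM with shCXCR7 and 103 RPKM with LKO in C4-2B-EnzR cells (-1.78, standard error 0.10). KLK2, its neighbour in the kallikrein family, fell by 2.13 (standard error 0.28) in LNCaP-EnzR cells and 1.54 (standard error 0.12) in C4-2B-EnzR. The serine protease TMPRSS2 fell by 1.79 in C4-2B-EnzR and 1.11 in LNCaP-EnzR cells. ABCC4, a transporter of cyclic nucleotides, fell by 1.56 in LNCaP-EnzR cells and 1.15 in C4-2B-EnzR, and PPAP2A, a lipid phosphate phosphatase, fell by 1.70 in LNCaP-EnzR cells.

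Coregulators and chaperones of steroid receptors moved both ways, with 5 of 22 higher and 4 lower in LNCaP-EnzR cells (median 0.05) and 2 higher and 6 lower in C4-2B-EnzR cells (median -0.10), shares called that are close to 40.7% of all genes in LNCaP-EnzR cells and below 42.5% in C4-2B-EnzR cells. MED1, HSP90AA1 and CTBP1 fell in both lines. MED1, the Mediator subunit that contacts nuclear receptors, averaged 2.57 RPKM with shCXCR7 and 9.82 RPKM with LKO in LNCaP-EnzR cells (-1.84, standard error 0.08), and 3.78 RPKM with shCXCR7 and 15.1 RPKM with LKO in C4-2B-EnzR cells (-1.93, standard error 0.09). HSP90AA1, a chaperone that keeps steroid receptors able to bind hormone, averaged 108 RPKM with shCXCR7 and 389 RPKM with LKO in LNCaP-EnzR cells (-1.87, standard error 0.13), and 91.1 RPKM with shCXCR7 and 303 RPKM with LKO in C4-2B-EnzR cells (-1.72, standard error 0.11). The corepressor CTBP1 fell by 1.06 in LNCaP-EnzR cells and 0.88 in C4-2B-EnzR. NCOA1, a coactivator, fell by 0.84 in C4-2B-EnzR cells. The adjusted p from limma of these calls lay between 6.91e-07 and 8.15e-05.

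Genes that glucocorticoids induce moved both ways, 7 of 18 higher and 5 lower in LNCaP-EnzR cells and 5 of 17 higher and 5 lower in C4-2B-EnzR cells (medians 0.24 and 0.10), beside 40.7% and 42.5% of all genes called. TSC22D3, an anti-inflammatory glucocorticoid target known as GILZ, averaged 5.05 RPKM with shCXCR7 and 24.6 RPKM with LKO in LNCaP-EnzR cells (-2.24, standard error 0.10), and 12.5 RPKM with shCXCR7 and 41.8 RPKM with LKO in C4-2B-EnzR cells (-1.71, standard error 0.13). DDIT4, an inhibitor of mTOR signalling, fell by 1.34 in LNCaP-EnzR cells and 0.81 in C4-2B-EnzR. CEBPD, a bZIP factor of acute phase responses, rose by 1.64 in LNCaP-EnzR cells and 1.31 in C4-2B-EnzR. CRISPLD2 rose by 1.38 in LNCaP-EnzR cells, and MT2A, a metallothionein, fell by 0.76 in C4-2B-EnzR cells.

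Secretory genes were listed for SPDEF and for the CREB3 family. Of 12 SPDEF-linked genes, 3 were tested in LNCaP-EnzR cells, of which 1 fell, and 6 in C4-2B-EnzR cells, of which 3 rose and 1 fell. SYTL2, a vesicle docking protein, went opposite ways, falling by 0.91 in LNCaP-EnzR cells and rising by 0.35 in C4-2B-EnzR cells. AGR2, a disulfide isomerase of the endoplasmic reticulum, and RAB27B, a vesicle GTPase, rose by 0.82 and 0.75 in C4-2B-EnzR cells, and TFF3, a secreted trefoil peptide, fell by 1.04 there. Of 16 secretory pathway genes of the CREB3 family, 5 rose and 2 fell in LNCaP-EnzR cells (median 0.15), a share called close to the 40.7% of all genes, and 8 rose and 2 fell in C4-2B-EnzR cells (median 0.35, against -0.0011 over all genes), where 21.2% of all genes rose. KDELR3 and ARF4, which act in retrieval to the endoplasmic reticulum and in Golgi traffic, rose by 0.97 and 0.91 in C4-2B-EnzR cells. ARF4 averaged 87.1 RPKM with shCXCR7 and 71.1 RPKM with LKO in LNCaP-EnzR cells. KDELR2 and the COPII coat subunit SEC24A rose by 0.39 and 0.40 in LNCaP-EnzR cells. They were not limited to that line. In C4-2B-EnzR cells KDELR2 averaged 105 RPKM with shCXCR7 and 70.0 RPKM with LKO, and SEC24A 9.05 and 6.37 RPKM. SEC24D rose in both lines (0.34 and 0.65). SEC61A1, the channel of the translocon, fell by 0.90 in LNCaP-EnzR cells and 0.94 in C4-2B-EnzR.

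Without LNCaP-EnzR shCXCR7 replicate 3, a setting added after the data were seen, every gene called in LNCaP-EnzR cells in these lists stayed called. The counts higher and lower became 7 and 4 of 22 coregulators, 5 and 2 of 10 family members, and 5 and 5 of 16 other luminal factors. They became 3 and 13 of 23 androgen-induced genes, 7 and 5 of 18 glucocorticoid-induced genes, 0 and 2 of 2 SPDEF-linked genes, and 6 and 2 of 16 secretory pathway genes. The counts over all genes grew too, to 2897 higher and 3072 lower of 12835 tested, from 2531 and 2785 of 13071 with that library.

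**Figure D4:**
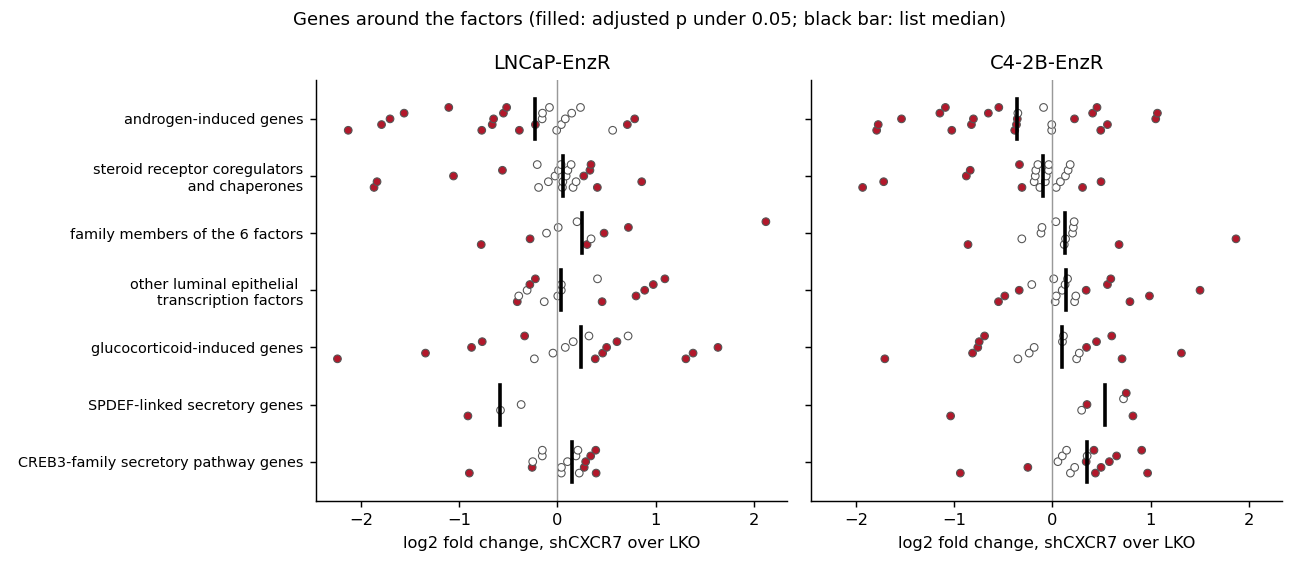
Log2 fold change, shCXCR7 over LKO, of every tested gene of the 7 lists in LNCaP-EnzR (left) and C4-2B-EnzR cells (right); each point is a gene, filled points have an adjusted p under 0.05, and black bars are list medians. Androgen-induced genes have medians of -0.22 and -0.36, with genes on both sides of 0, and CREB3-family secretory genes medians of 0.15 and 0.35.

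The genes whose pattern was most like each member were ranked by Pearson's r over the 12 libraries after removal of each line's mean, among 10803 genes, as a description. For GATA2 they were BRD2 (r = 0.993), a reader of acetylated histones, NOC2L (0.993) and TMEM9 (0.992). The top 1% of genes began at 0.973 for GATA2, so a great many genes followed the same contrast of shCXCR7 and LKO libraries. For FOXA1 they were POLD2 (0.978), LRRC57 (0.965) and UBTF (0.965), and for HOXB13 MTHFD1 (0.966), PTBP1 (0.966) and SSRP1 (0.962). For SPDEF they were FAAP20 (0.902), TMEM121 (0.829) and GADD45GIP1 (0.804), and for CREB3L4 C19orf81 (0.933), SMPD2 (0.930) and TP53TG1 (0.903). For NR3C1, LOC284023 (0.909), SLC43A1 (0.905) and ZBTB39 (0.893) came first, but in LNCaP-EnzR cells its pattern is the high value of replicate 3. Between members, r was 0.922 for GATA2 with FOXA1, 0.692 for GATA2 with HOXB13 and 0.171 for GATA2 with SPDEF.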

How the data were processed

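RNA-Seq was done on 12 libraries of human prostate cancer cells, 3 per group. The authors used a NEBNext Ultra kit and single-end reads on a HiSeq, aligned with STAR to hg38 (both named in the submitters' notes), and deposited RPKM per gene from an in-house script. Sources used here name neither the annotation nor the strand setting of the counting. RPKM divides by length and by the library's reads, and reads outside genes therefore lower the RPKM of a library. The authors tested with DESeq2. RPKM are not counts, so limma on log2 values was the test here, with voom on recovered whole reads as an alternative.

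Of 26475 lines, 32 without values and 4 with a repeated symbol were left out. Whole reads came back from the RPKM steps for 25027 of 25028 genes above 0 (within 0.05 reads). Replicates differed by more than counting error (chi-square per degree of freedom 1.63 to 19.92), so none was counted as a copy. Values were divided by median-of-ratios factors from genes above 0 in every library and at 0.5 RPKM or more in at least 3, within each line, or over the 12 libraries for comparisons between lines. Genes at 0.5 RPKM or more in at least 3 libraries were tested on log2(RPKM + 0.25) by limma (version 3.58.1, R 4.3.3), with a variance trend, and called at a Benjamini-Hochberg adjusted p under 0.05. The difference between lines was an interaction term over all 12 libraries, which also gave the contrast of the control lines. The tests were checked on simulated data. Other scalings, pseudocounts (0.05 and 1), filters, forms of empirical Bayes, voom, a replicate block and leaving out each library were tried. Factors from all genes above 0 and list counts without 1 library were added after seeing the data.

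The members and lists were chosen with earlier results of these data known. Named from each list were up to 4 genes per line with the largest change among those called without overlap, and, for each member, the 3 genes most like it with a mean of at least 1 RPKM in each group. ACKR3 checked the knockdown. Some results are not reported here. Same-numbered libraries did not deviate together (correlations -0.11 to 0.06), so replicate numbers do not pair samples. Python 3.11.15, numpy 2.4.6, pandas 2.3.3, scipy 1.17.1 and matplotlib 3.10.9 were used. Gene positions and promoters came from RefSeq, and strands, exon counts and exon overlaps from GENCODE 44.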

Additional observations from a re-analysis of the deposited data

Results flagged for a closer look

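None of the 6 factors differed between the lines in its response to shCXCR7 by limma's interaction test at an adjusted p under 0.05, where 11.8% of all genes did. Around them, 17 genes named in the report or overlapping a member did, given here as the log2 fold change in C4-2B-EnzR minus that in LNCaP-EnzR cells. Most were named for a large change in at least 1 line, so their count cannot be read against that share. CXCR7 itself (ACKR3) differed by -0.71 (adjusted p = 0.0109 from limma), with the deeper fall in C4-2B-EnzR cells.

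Among genes with the lower value in C4-2B-EnzR cells, MT2A differed by -1.20, CRISPLD2 by -1.42, KLF4 by -0.96, NR3C2 by -0.80, OVOL1 by -0.69, TMPRSS2 by -0.66, NFIX by -0.64 and GATA2-AS1 by -0.56 (adjusted p from limma between 0.00538 and 0.0452). Among those with the higher value there, SYTL2 differed by 1.29, SYP by 1.19, KDELR3 by 0.80, PPAP2A by 0.70, ARF4 by 0.64, DDIT4 by 0.55, TTC6 by 0.53 and SLC39A1 by 0.32 (adjusted p from limma between 0.000394 and 0.0482). In C4-2B-EnzR cells CRISPLD2 averaged 0.231 RPKM with shCXCR7 and 0.241 RPKM with LKO, and NR3C2 0.291 and 0.437 RPKM, below the 0.5 RPKM filter. These 2 genes passed it through LNCaP-EnzR libraries, where they are higher, so their differences between the lines are no support. SYP encodes synaptophysin, a neuroendocrine marker, which rose by 2.43 on the log2 scale in C4-2B-EnzR cells and by 1.20 in LNCaP-EnzR cells. ENO2, the other neuroendocrine marker tested, fell in both lines (-0.79 in C4-2B-EnzR cells, adjusted p = 0.000142, and -1.08 in LNCaP-EnzR cells, adjusted p = 3.17e-05, from limma), and the markers' summed level was lower with shCXCR7 in both. The HOXB13 to FOXA1 ratio within a library was 1.19 times that of LKO in LNCaP-EnzR cells and 0.863 times in C4-2B-EnzR cells, with no overlap in either line, and this difference was not tested. Why the lines differ was not tested, and they also differ in drug dose and depth of knockdown.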

How the results depend on the processing

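RPKM as deposited left LNCaP-EnzR shCXCR7 replicate 3 unscaled, and then 0 members were called in LNCaP-EnzR (main 2) and 1 between the control lines (main 5). Counts between the control lines include NR3C1 where it was tested, and the 1 call as deposited was NR3C1, whose difference is no support. As deposited, GATA2, FOXA1, HOXB13 and CREB3L4 were lost there, with adjusted p from limma between 0.139 and 0.808. No filter gave 1 in LNCaP-EnzR cells, and 1 fit of 12 libraries gave 2 in C4-2B-EnzR cells (main 4). The difference between the lines passed for 1 member (main 0), HOXB13, with quantile normalization, factors from genes at 5 RPKM or more, or background subtracted. Leaving out each library gave 1 to 2 members in LNCaP-EnzR, 2 to 4 in C4-2B-EnzR, 0 to 1 for the difference and 4 to 5 between control lines.

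Signs turned for values that missed the test both as reported and under the alternative. In LNCaP-EnzR cells quantile normalization gave 0.051 for HOXB13, 0.033 for SPDEF and 0.068 for CREB3L4, factors from genes at 5 RPKM or more 0.0093 and background subtraction 0.023 for CREB3L4. For SPDEF those factors gave -0.0055 in C4-2B-EnzR cells and 0.059 between controls (0.012 as deposited). For the difference between lines, quantile normalization gave -0.11 for FOXA1, -0.13 for GATA2 and -0.024 for SPDEF, those factors -0.047 for GATA2 and -0.037 for SPDEF, and RPKM as deposited 0.011 for HOXB13. Without single libraries, ranges were -0.13 to 0.020 for HOXB13, -0.10 to 0.018 for SPDEF and -0.061 to 0.021 for CREB3L4 in LNCaP-EnzR, -0.046 to 0.084 for SPDEF in C4-2B-EnzR cells, and -0.016 to 0.14 for the GATA2 difference.

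Over all genes, RPKM as deposited called 236 higher and 371 lower in LNCaP-EnzR cells (main 2531 and 2785, median moved to -0.31), 20 and 33 for the difference (main 874 and 796) and 2369 and 1347 between controls (main 4376 and 4271). No filter called 559 higher for the difference, with the median of all genes at 0.34 in LNCaP-EnzR cells and -0.30 for the difference, factors from genes at 5 RPKM or more 1265 lower, and single libraries left out 447 to 925 higher and 483 to 883 lower. Replicate numbers did not pair the samples. With a replicate block 2, 3, 0 and 5 members, the 5 counting NR3C1, were called in the 4 comparisons. FOXA1 in C4-2B-EnzR cells was lost (adjusted p = 0.0922 from limma). The cause of these moves was not tested. NR3C1 had at most 231 reads per library, which limits its values.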
